A study of Rattus norvegicus with 42 samples.

Results

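Liver mRNA was compared directly between rats infused with corticosterone (CORT) at a constant rate (CONS) and rats infused with the hormone in hourly pulses (PULS), with no vehicle library on either side of the ratio. The comparison rested on 6 of the 42 libraries of the series, 3 CONS CORT and 3 PULS CORT, all taken at 180 min. Of the 22929 genes in the count table, the 14092 with more than 10 reads over the 12 RNA-Seq libraries were tested, and 125 (0.887%) differed between the infusion patterns by more than 1.5-fold at an adjusted p below 0.05. Of these, 87 (0.617% of the genes tested) were higher and 38 (0.27%) were lower in CONS.

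The animals were male Sprague Dawley rats whose adrenal glands had been removed, so that the infusion was their source of CORT, and liver was the tissue in all libraries. In PULS the pump ran for 20 min of each hour at 1 ml/h for 3 h, and in CONS it ran at 0.333 ml/h throughout after a short faster start. Vehicle (VEH) rats had the same surgery and received the carrier without hormone in either pattern, with 3 libraries per pattern. All rats had received low CORT in their drinking water until the day before and dexamethasone, a synthetic glucocorticoid, at surgery. At 180 min PULS rats were at the end of the pump-off interval that followed the third pulse, the nadir, while CONS rats were still receiving hormone. The pattern of delivery and this phase of the pulse cannot be told apart in these libraries.

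CORT is the main glucocorticoid of the rat. It enters hepatocytes and activates the glucocorticoid receptor (GR), a transcription factor that binds DNA while hormone is present and leaves it as hormone is cleared, and whose known targets in liver serve glucose production, amino acid use and restraint of inflammation. In the intact animal the adrenal releases CORT in roughly hourly pulses whose size follows the day.

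The 3 CONS CORT libraries held 4850277, 6974653 and 5659737 reads in genes and the 3 PULS CORT libraries 5320686, 4164440 and 3956379, within a range of 3956379 to 7777219 over all 12. The hepatocyte gene Alb took 7.07 to 11.8% of reads in every library. Levels below are read counts scaled for library depth (CPM) with TMM factors, in the order of replicates 1, 2 and 3, and differences are log2 of CONS over PULS with their standard error (SE) from edgeR's quasi-likelihood test, adjusted over all 14092 genes. The labels do not say whether the libraries of a group were separate rats, so the p-values measure the spread between these libraries.

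After this scaling the median log2 fold change over all genes tested was -0.00075. Among the 87 genes higher in CONS the median was 1.02, with a range of 0.59 to 2.99; 44 differed by more than 2-fold and 5 by more than 4-fold. Among the 38 lower genes the median was -1.02, with a range of -4.21 to -0.60; 19 differed by more than 2-fold and 3 by more than 4-fold. In all 125 the 3 libraries of one group lay entirely above or below those of the other, as they did in 2414 (17.1%) of all genes tested. Without adjustment 1548 genes (11%) had p below 0.05.

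**Figure D1:**
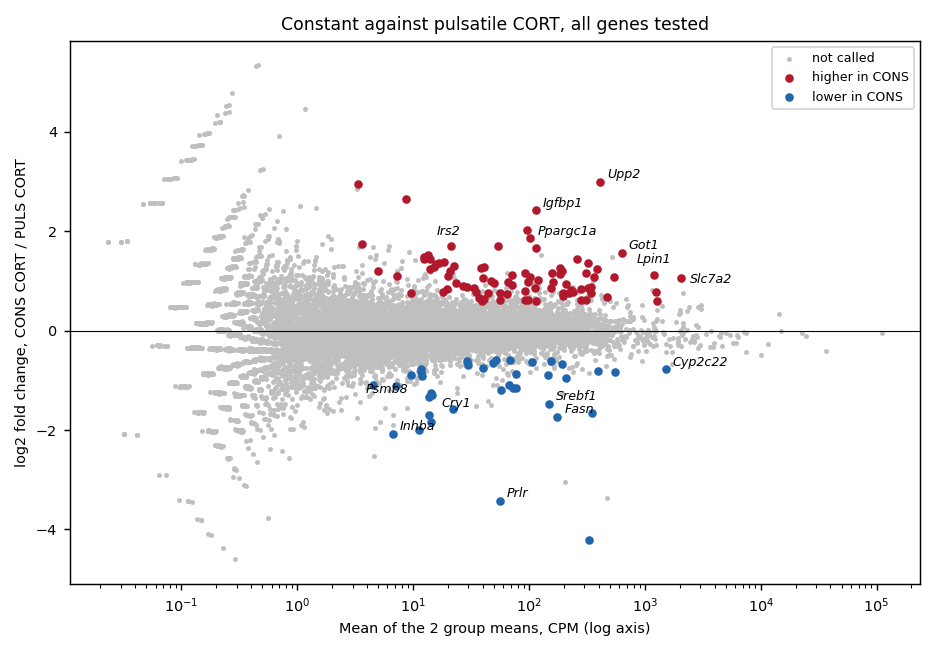
Log2 fold change of CONS CORT over PULS CORT (vertical axis) against the mean of the group means in CPM (horizontal log axis) for the 14092 genes tested, with the 87 called higher in red and the 38 called lower in blue. Called genes lie across the whole range of levels from about a few CPM upwards, and the fan of grey points at the left is made of genes with few reads.

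The number of calls depended on the libraries and on how the spread was estimated. Pairing same-numbered libraries in the fit of all 12 libraries gave 161 calls (108 higher and 53 lower), of which 117 were among the 125 (93.6% of the 125 and 72.7% of the 161). With the 6 CORT libraries alone there were 208 without pairing and 398 (243 higher and 155 lower) with it, and the 398 held all 125. The labels do not say what a shared number means. Leaving out a library gave 22 calls without PULS CORT replicate 2, 33 without PULS CORT replicate 3 and 38 without CONS CORT replicate 1, against 94, 130 and 140 without CONS CORT replicate 3, CONS CORT replicate 2 and PULS CORT replicate 1. Of the 53 called genes singled out by size or by list below, 15 were called in each of these fits, with each vehicle library left out and in each other setting applied to single genes: Upp2, Ppargc1a, Arl5b, Slc25a32, Got1, N4bp2l1, Etnppl, Slc38a2, Por, Slc25a15, Klf15, Psmb8, Cry1, Igfals and AABR07035343.1. None of the 53 changed direction in these fits. Leaving out CONS VEH replicate 3, PULS VEH replicate 1 or PULS VEH replicate 3 also ended calls among the 53, as these libraries enter the fit's estimate of the spread; without CONS VEH replicate 3 these included Fasn, Fads1 and Gpam (each adjusted p = 0.0507).

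The largest rise among genes of at least 5 CPM was in Upp2, a uridine phosphorylase of the liver. Its level was 883, 534 and 762 CPM in CONS CORT and 110.3, 79.4 and 84 CPM in PULS CORT, a 7.94-fold difference (log2 fold change 2.99, SE 0.35, adjusted p = 0.00133). The lowest CONS library was far above the highest PULS library, and the VEH libraries lay at 76.3, 32.6 and 102 CPM (CONS VEH) and 27.5, 55.5 and 23.4 CPM (PULS VEH), so only 1 PULS CORT library was above all vehicle libraries.

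Igfbp1, which encodes a liver protein that binds insulin-like growth factors in blood and is known to be induced in fasting, had 251, 172 and 154 CPM in CONS CORT and 53.9, 28.4 and 24.1 CPM in PULS CORT, a 5.36-fold difference (log2 fold change 2.42, SE 0.36, adjusted p = 0.0044). Ppargc1a, the coactivator that drives gluconeogenic and mitochondrial genes, had 163, 148 and 175 CPM against 58.5, 32.6 and 41.8 CPM (log2 fold change 1.86, SE 0.20, adjusted p = 0.000685), the smallest adjusted p of the table. Neither gene's groups overlapped, and the 3 CONS libraries of Ppargc1a were within a narrow range of each other. Without PULS CORT replicate 2 the call of Igfbp1 ended (adjusted p = 0.0523), with the log2 fold change between 2.18 and 2.87 over the libraries left out.

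Irs2, an adaptor that carries the insulin signal in hepatocytes, was at 28.8, 49.3 and 20.4 CPM in CONS and 13.5, 8.41 and 8.20 CPM in PULS (log2 fold change 1.70, SE 0.35, adjusted p = 0.0311). Irs1, the other main adaptor, rose as well (1.16, adjusted p = 0.0248). Among the 18 genes of insulin signalling tested these were the only 2 called, 14 had a positive difference and the list median was 0.22; Foxo1, the transcription factor that insulin restrains, was at 0.75 with an adjusted p of 0.0564. The calls of Irs2 and Irs1 ended without CONS CORT replicate 1, CONS CORT replicate 2, PULS CORT replicate 2 or PULS CORT replicate 3, with adjusted p up to 0.179 for Irs2 and 0.155 for Irs1.

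The promoters of Igfbp1, of Ppargc1a and of the clock gene Nr1d1, which also rose, are shown because each held one of the short motifs searched. They are the 250 bases before the annotated start in RefSeq (build GRCr8, not the rn6 build of the deposited files), written 5′ to 3′ with the motif in capitals: the insulin response element CAAAACAA for Igfbp1, the cAMP response element TGACGTCA for Ppargc1a and the E-box CACGTG, the sequence that clock activators bind, for Nr1d1.
Igfbp1, chr14:86261027-86261276, strand +: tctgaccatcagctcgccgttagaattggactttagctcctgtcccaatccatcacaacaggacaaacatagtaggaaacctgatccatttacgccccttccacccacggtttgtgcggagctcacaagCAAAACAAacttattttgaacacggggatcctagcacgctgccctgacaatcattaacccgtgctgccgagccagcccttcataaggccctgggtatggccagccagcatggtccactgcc
Ppargc1a, chr14:63634058-63634307, strand +: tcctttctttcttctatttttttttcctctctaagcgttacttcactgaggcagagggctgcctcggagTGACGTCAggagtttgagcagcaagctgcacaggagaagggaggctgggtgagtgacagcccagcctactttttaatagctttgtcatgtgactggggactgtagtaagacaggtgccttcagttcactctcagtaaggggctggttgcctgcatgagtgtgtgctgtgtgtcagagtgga
Nr1d1, chr10:84229455-84229704, strand -: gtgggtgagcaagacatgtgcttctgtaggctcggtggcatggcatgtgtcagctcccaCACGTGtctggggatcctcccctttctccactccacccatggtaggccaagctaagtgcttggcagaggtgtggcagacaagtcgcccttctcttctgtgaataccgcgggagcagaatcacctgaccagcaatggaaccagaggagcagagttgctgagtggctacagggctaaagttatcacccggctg
The motifs began 121, 181 and 191 bases before the start.

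Each motif was searched on both strands of the window from 250 bases before to 50 bases after the start, in the 69 higher and 28 lower genes that matched a RefSeq promoter by name. CAAAACAA was found in 2 of the higher and 1 of the lower genes, against 1.83% of the 10153 tested genes that matched a promoter (2.39% of all 27457 promoters). TGACGTCA was found in 4 and 3 (2.95% of tested genes and 2% of all promoters), among them Arl5b, Lrrc8a and Ell2 besides Ppargc1a, and CACGTG in 8 and 2 (9.37% and 7.08%), among them Klf15 and Il6r; the genes named for a motif were chosen after the matches were seen. The glucocorticoid response element, searched as GNACANNNTGTNC, and the sterol regulatory element, searched as TCACNCCAC, were found in none of the higher or lower genes and in 0.345% and 1.17% of tested genes (0.459% and 1.25% of all promoters). A match is a description of the letters only, and the window holds a small part of the DNA that may control a gene.

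Several genes of amino acid handling were higher in CONS, among them carriers of the plasma membrane and of mitochondria. Slc38a2 and Slc38a4, which bring neutral amino acids into the cell with sodium, Slc7a2, the carrier of cationic amino acids, and Slc16a10, the carrier of aromatic amino acids, made 4 of the 18 transporters tested; none was lower, 12 had a positive difference and the list median was 0.11. Slc38a2 had 214, 338 and 248 CPM in CONS and 139, 124 and 84 CPM in PULS (log2 fold change 1.20, SE 0.19, adjusted p = 0.00516). Slc16a10 had 498, 309.7 and 325 CPM in CONS and 140.3, 131 and 146 CPM in PULS (log2 fold change 1.44, SE 0.25, adjusted p = 0.00951). The VEH means of Slc38a2 were 39 ± 5.33 CPM (CONS, SD, n = 3) and 44.8 ± 5.90 CPM (PULS, SD, n = 3), so this gene stood above vehicle in both CORT groups.

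Slc7a2 drew the most reads of the 87 genes, at 2846, 2904 and 2573 CPM in CONS and 1580.5, 1115 and 1304 CPM in PULS (log2 fold change 1.06, SE 0.19, adjusted p = 0.0145). Slc38a4 was close to the 1.5-fold limit (0.59, adjusted p = 0.0495) and lost its call with all 12 libraries paired (adjusted p = 0.0584). The calls of Slc16a10 and Slc7a2 ended without CONS CORT replicate 1, PULS CORT replicate 2 or PULS CORT replicate 3 (adjusted p up to 0.0753 and 0.117), and that of Slc38a4 with each library left out except PULS CORT replicate 1 (up to 0.261). Slc25a15, which carries ornithine into mitochondria for the urea cycle, had 785, 659.6 and 762 CPM against 432, 336 and 278 CPM (log2 fold change 1.08, SE 0.14, adjusted p = 0.00184) and was the only one of 9 urea cycle genes called.

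Inside the cell, Got1, the cytosolic aspartate aminotransferase that links amino acids to the malate and aspartate shuttle, had 791, 1058 and 977 CPM in CONS and 369.6, 286 and 297 CPM in PULS (log2 fold change 1.57, SE 0.20, adjusted p = 0.00148). Etnppl, which breaks down phosphoethanolamine, had 616, 474 and 556 CPM against 255, 212 and 226 CPM (log2 fold change 1.25, SE 0.15, adjusted p = 0.00145). These were the 2 called of 37 genes tested on the list of amino acid breakdown, with a list median of 0.03. Etnppl is on that list although phosphoethanolamine is not an amino acid, so Got1 was the only called member that acts on one. Sds, serine dehydratase, and Tat, tyrosine aminotransferase, were not called (1.48, adjusted p = 0.0778 and 0.77, adjusted p = 0.306). Slc25a32, a mitochondrial folate carrier, had 232, 106 and 187 CPM against 60.4, 54.6 and 49.2 CPM (log2 fold change 1.67, SE 0.21, adjusted p = 0.00148), and Klf15, a transcription factor known to control amino acid breakdown, had 85.3, 90.2 and 84.9 CPM against 50.6, 39.6 and 41.3 CPM (log2 fold change 0.98, SE 0.13, adjusted p = 0.00149). In VEH Got1 lay at 92.5, 85.1 and 128 CPM (CONS) and 120.1, 111 and 68.5 CPM (PULS), so that the PULS CORT libraries stood between vehicle and CONS CORT.

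**Figure D2:**
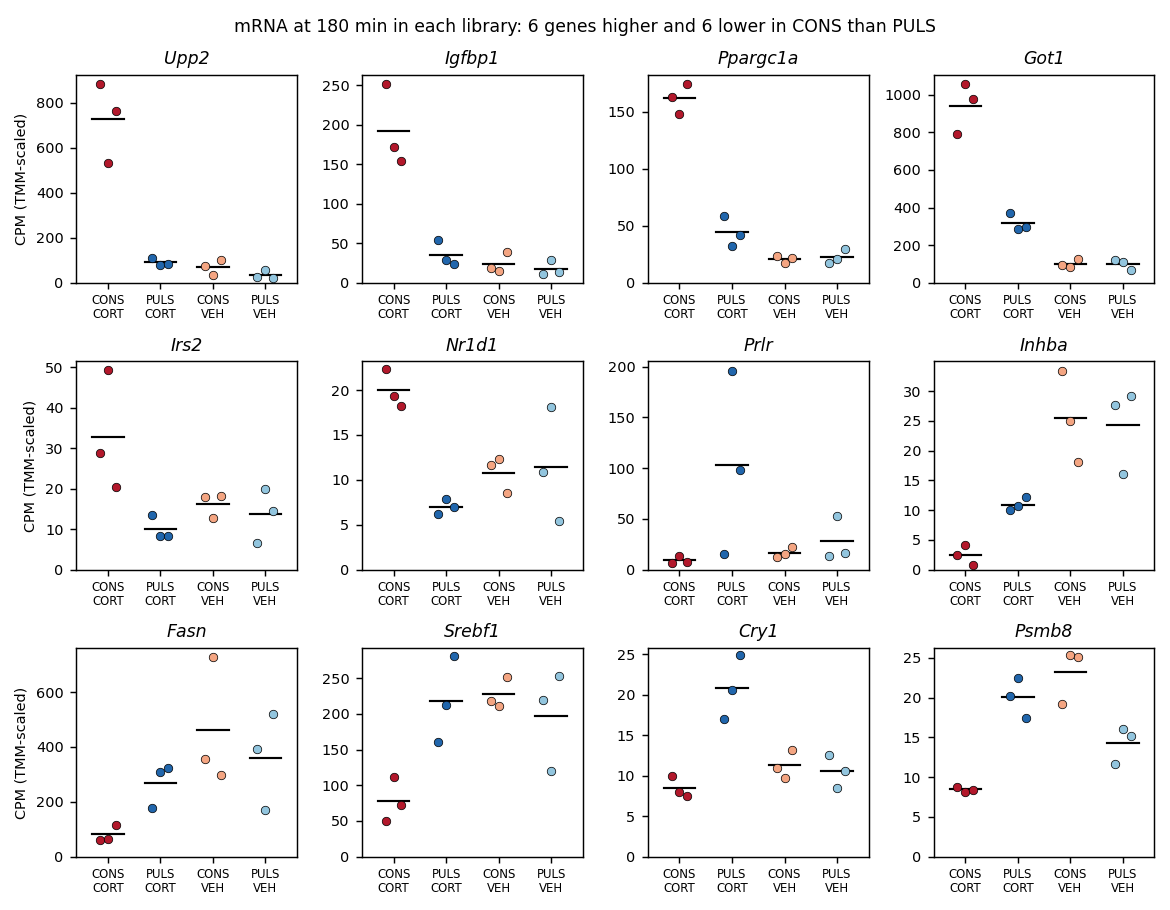
Levels in CPM (vertical axes, each from 0) of 6 genes higher and 6 lower in CONS CORT than in PULS CORT, with 1 point per library and a bar at the mean of the 3 libraries, for the CORT and VEH groups. The CONS CORT points are apart from the PULS CORT points in every panel, and for Prlr the PULS CORT libraries run from 15.4 to 196 CPM.

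Of 15 gluconeogenesis genes tested, Ppargc1a and Got1 were higher and none was lower (list median 0.03). G6pc, also on the list, had no match by name among the genes tested, so these counts do not cover it. With the libraries paired (12 or 6), with the 6 CORT libraries alone and with DESeq2, 3 were higher, the third with the 6 libraries paired being Foxo1. Calls over all 14092 genes rose as well in these fits, to 108, 243, 137 and 138 higher in that order, against 87. Pck1, the enzyme that commits carbon to glucose, was at 3199.8, 3420.3 and 3379 CPM in CONS and 2885, 2230.0 and 2069.8 CPM in PULS and was not called (0.48, adjusted p = 0.27). Of 25 genes of fatty acid oxidation and ketogenesis, Ppara, the nuclear receptor that drives them (1.25, adjusted p = 0.0482), and Cpt1a, which admits fatty acids to mitochondria (0.84, adjusted p = 0.0494), were higher and none lower, with a list median of 0.06. Both were lost when a library was left out: Ppara without CONS CORT replicates 1 or 2 or PULS CORT replicates 2 or 3 (adjusted p up to 0.243), and Cpt1a with each of the 6 libraries left out in turn (up to 0.252). Other nuclear receptors of liver metabolism that rose were Nr1i2, which senses foreign compounds (0.71, adjusted p = 0.021), and Nr5a2, which controls bile acid genes (0.82, adjusted p = 0.021). With Ppara they made 3 of 30 nuclear receptors and liver transcription factors tested, with none lower and a list median of -0.02. Without CONS CORT replicate 1 or PULS CORT replicates 2 or 3 the calls of Nr1i2 and Nr5a2 ended (adjusted p up to 0.116 and 0.144). Por, the reductase that supplies electrons to the cytochromes P450, had 493, 410.3 and 377 CPM against 178, 228 and 167 CPM (log2 fold change 1.16, SE 0.15, adjusted p = 0.00184).

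The remaining members of the 15 largest rises were AABR07042825.1, LOC103690028, Arl5b, Nr1d1, Ccdc148, Spsb4, Rgs5 and N4bp2l1, with log2 fold changes of 1.38 to 2.65. AABR07042825.1, a locus without an established name, had 19.3, 6.33 and 19.5 CPM against 2.12, 1.73 and 3.23 CPM (log2 fold change 2.65, SE 0.41, adjusted p = 0.0051). LOC103690028 had 193, 109 and 163 CPM against 48.3, 35.9 and 29.3 CPM (log2 fold change 2.02, SE 0.31, adjusted p = 0.0051). Arl5b, a small GTPase of membrane traffic, had 96.7, 60.9 and 89.9 CPM against 29.1, 26.7 and 20.1 CPM (log2 fold change 1.69, SE 0.20, adjusted p = 0.00133). None of these had overlapping groups, but AABR07042825.1 lost its call without PULS CORT replicate 2 (adjusted p = 0.0543) and LOC103690028 without PULS CORT replicates 2 or 3 (up to 0.0539). So did Rgs5 without PULS CORT replicate 2 (0.0547), Spsb4 without PULS CORT replicates 2 or 3 (up to 0.0549) and Ccdc148 without those or CONS CORT replicates 1 or 3 (up to 0.185). Fosl2, a subunit of the AP-1 transcription factor, was the only one of 13 immediate early factors called (1.29, adjusted p = 0.0213), and Il6r, the receptor subunit for interleukin 6, was the only higher gene of 27 in cytokine signalling (0.76, adjusted p = 0.0316). The call of Fosl2 ended without CONS CORT replicate 1 or PULS CORT replicates 2 or 3 (adjusted p up to 0.113), and that of Il6r with any library left out except CONS CORT replicate 3 (up to 0.188).

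Of the 26 tested genes of a list of known GR targets, 3 were higher (Igfbp1, Ppargc1a and Lpin1), against 0.617% of all genes tested, and none was lower; 22 had a positive difference, with a list median of 0.74 against -0.00075 for all genes. The list was chosen with earlier results of these data known. It holds Igfbp1, Lpin1 and Sds, which the study itself singled out, so these shares are a description and no independent test. Lpin1, a phosphatidate phosphatase that also acts as a coactivator, had 985, 2145 and 1837 CPM in CONS and 819, 638 and 837 CPM in PULS (log2 fold change 1.11, SE 0.23, adjusted p = 0.0296), so that the lowest CONS library was close to the highest PULS library. Without CONS CORT replicates 2 or 3 or any one of the PULS CORT libraries its call ended (adjusted p up to 0.185).

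The other 23 GR targets tested were not called. Fkbp5, the chaperone that restrains GR, had 194, 97.7 and 138 CPM in CONS and 103, 58.4 and 58.9 CPM in PULS, with overlapping groups (0.95, adjusted p = 0.0704). Per1, a clock gene that glucocorticoids induce directly, had 27.2, 30.7 and 31.5 CPM against 31, 24.5 and 20.6 CPM (0.23, adjusted p = 0.773), with VEH libraries at 2.44, 4.41 and 3.80 CPM (CONS) and 3.26, 2.08 and 6.22 CPM (PULS). For Per1 the CORT groups overlapped and both lay far above vehicle. Tsc22d3, the glucocorticoid-induced leucine zipper, was at 0.57, adjusted p = 0.4. The remaining positive members were Zbtb16 (0.67), Dusp1 (0.11), Klf9 (0.76), Tat (0.77), Mt2A (1.00), Pck1 (0.48), Cdkn1a (0.57), Errfi1 (0.52), Sds (1.48), Angptl4 (0.74), Ddit4 (1.11), Nfkbia (0.74), Gadd45b (1.84), Gadd45g (1.58), Bcl6 (0.69) and Hif3a (1.90). The negative members were Arrdc3 (-0.99, adjusted p = 0.0741), Sgk1 (-0.47), Sult1e1 (-0.43) and Rgs3 (-0.20). Here the fit mattered: with the 6 CORT libraries paired, 15 of the 26 were higher and 1, Arrdc3, lower, where 1.72% of all genes tested were higher and 1.1% lower. With all 12 libraries paired 4 were higher and 1 lower, against 0.766% and 0.376% of all genes tested.

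**Figure D3:**
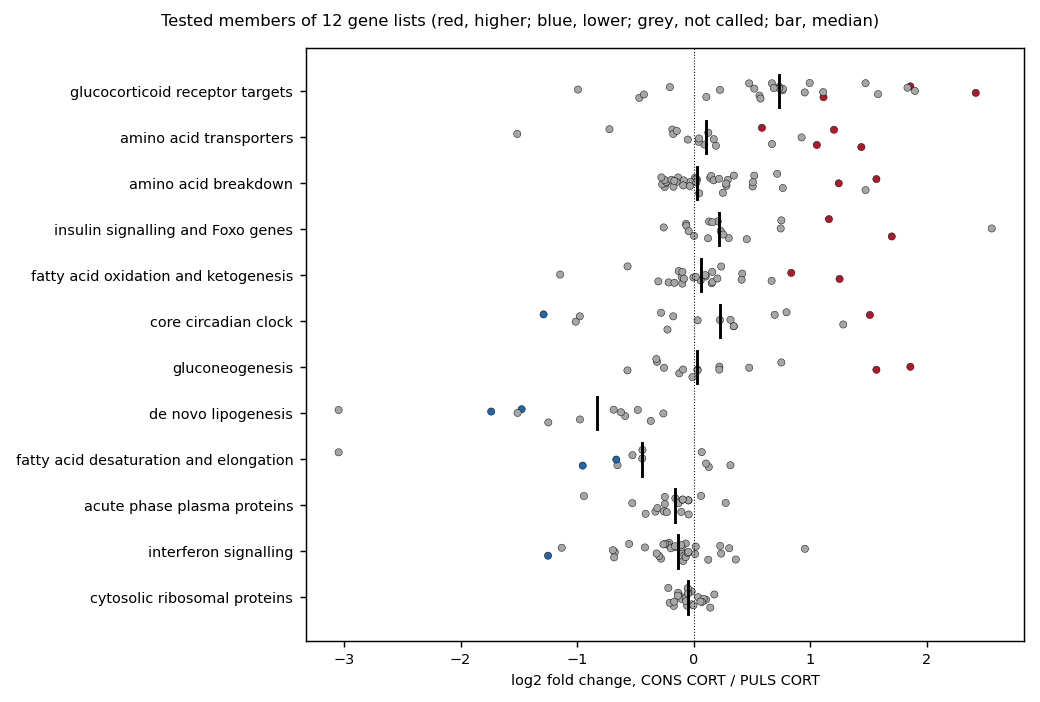
Log2 fold change of CONS CORT over PULS CORT (horizontal axis) for each tested member of 12 gene lists, 1 point per gene, coloured red where called higher, blue where called lower and grey otherwise, with a bar at the list median. GR targets lie mostly to the right (median 0.74), de novo lipogenesis to the left (-0.83), and ribosomal protein genes around 0.

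Of the 38 genes lower in CONS, 5 were on the lists of fatty acid and triglyceride synthesis: Srebf1, Fasn, Fads1, Elovl5 and Gpam. Srebf1, the transcription factor that turns on fatty acid synthesis, had 50.4, 111 and 72 CPM in CONS and 160.1, 212 and 281 CPM in PULS (log2 fold change -1.48, SE 0.28, adjusted p = 0.0202), with VEH at 218, 212 and 252 CPM (CONS) and 219.7, 119 and 254 CPM (PULS). Fasn, fatty acid synthase, had 61.1, 64 and 117 CPM against 176, 309 and 323 CPM (log2 fold change -1.74, SE 0.39, adjusted p = 0.0489), with VEH between 169 and 727 CPM. For both genes each CONS CORT library lay below every library of the other groups, while the PULS CORT mean lay within the vehicle range. Scd, the stearoyl desaturase, had 19.5, 21.3 and 91.3 CPM against 137, 191 and 763 CPM and the largest difference of the list, and it was not called (log2 fold change -3.05, SE 0.77, adjusted p = 0.0742). With the 6 CORT libraries paired Scd was lower (log2 fold change -3.02, adjusted p = 2.31e-13). All 12 genes of de novo lipogenesis tested had a negative difference, with 2 called and a median of -0.83, where 0.27% of all genes tested were called lower. When the 6 CORT libraries were paired 8 were lower, where 1.1% of all genes tested were.

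Desaturation and elongation of fatty acids gave 2 lower genes of 11, Fads1 (-0.95, adjusted p = 0.0367) and Elovl5 (-0.66, adjusted p = 0.021), with a median of -0.44. Gpam, which starts triglyceride synthesis, was lower (-0.90, adjusted p = 0.0356) while Lpin1, which acts later in the same pathway, was higher.

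These calls were sensitive to single libraries. Without CONS CORT replicate 1, PULS CORT replicate 2 or PULS CORT replicate 3 none of Srebf1, Fasn, Fads1, Elovl5 and Gpam was called, and each was lost without 1 further library, CONS CORT replicate 2 for Fasn, Fads1 and Elovl5 and CONS CORT replicate 3 for Srebf1 and Gpam. Their largest adjusted p ran from 0.111 for Srebf1 to 0.237 for Fasn, and none changed direction.

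Other genes that fell in CONS belonged to several functions. Inhba, the subunit of activin A, had 2.44, 4.22 and 0.716 CPM in CONS against 10.0, 10.6 and 12.2 CPM in PULS (log2 fold change -2.07, SE 0.41, adjusted p = 0.0241), with VEH at 33.3, 24.9 and 18.1 CPM (CONS) and 27.7, 16 and 29.2 CPM (PULS). Slc34a2, a sodium and phosphate cotransporter, had 4.06, 9.57 and 5.19 CPM against 17.1, 24.5 and 22.6 CPM (log2 fold change -1.71, SE 0.29, adjusted p = 0.00866), and Osgin1, a growth inhibitor induced by oxidative stress, 14.2, 11.7 and 6.99 CPM against 15.4, 50.2 and 33.1 CPM (log2 fold change -1.57, SE 0.33, adjusted p = 0.0338). For these 3 genes vehicle was highest, PULS CORT intermediate and CONS CORT lowest by group mean. The calls of Inhba, Slc34a2 and Osgin1 ended without CONS CORT replicate 1, PULS CORT replicate 2 or PULS CORT replicate 3, those of Inhba and Osgin1 also without CONS CORT replicate 3 and that of Osgin1 also without CONS CORT replicate 2 (adjusted p up to 0.104, 0.0558 and 0.202).

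Prlr, the prolactin receptor, had 6.91, 13.2 and 7.70 CPM in CONS and 15.4, 196 and 97.7 CPM in PULS (log2 fold change -3.42, SE 0.68, adjusted p = 0.0244), so its size rested on PULS replicates 2 and 3, and the VEH libraries ran from 12.3 to 53.2 CPM. Its call ended without CONS CORT replicates 1 or 3 or PULS CORT replicates 2 or 3 (adjusted p up to 0.158). AABR07015057.1 had the largest fall, from 1588, 79.9 and 213 CPM in PULS to 19.1, 51.2 and 30.3 CPM in CONS (log2 fold change -4.21, SE 0.96, adjusted p = 0.0495), but PULS VEH was also above CONS VEH (log2 fold change -5.83), 1 PULS CORT library held most of the reads, and the call ended with all 12 libraries paired (adjusted p = 0.115) and without any one CORT library except PULS CORT replicate 2 (up to 0.241). AABR07068203.1 had 2.44, 7.32 and 3.04 CPM against 8.28, 26.7 and 20.1 CPM (log2 fold change -1.99, SE 0.45, adjusted p = 0.0478) and lost its call with all 12 libraries paired (0.0584) and without CONS CORT replicates 1 or 3 or PULS CORT replicates 2 or 3 (up to 0.261). AABR07035343.1, with 135, 227 and 143 CPM against 377, 506 and 720.2 CPM (log2 fold change -1.66, SE 0.24, adjusted p = 0.00396), kept its call with each of the 12 libraries left out in turn and in each other setting applied to single genes.

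The clock gave 1 gene in each direction among 15 tested. Nr1d1, the repressor REV-ERB alpha, had 22.3, 19.3 and 18.3 CPM in CONS and 6.16, 7.91 and 6.96 CPM in PULS (log2 fold change 1.51, SE 0.30, adjusted p = 0.0245). Cry1, a repressor of the opposite phase, had 9.95, 8.02 and 7.52 CPM against 16.9, 20.5 and 24.9 CPM (log2 fold change -1.29, SE 0.20, adjusted p = 0.00454). The VEH libraries of Cry1 lay at 11, 9.70 and 13.2 CPM (CONS) and 12.5, 8.50 and 10.6 CPM (PULS), so it was the PULS CORT group that stood above the other 3. Per2 was at -0.98, adjusted p = 0.0796, and Arntl and Clock at -0.22 and 0.03. The call of Nr1d1 ended without CONS CORT replicate 1 or any one of the PULS CORT libraries (adjusted p up to 0.109), while Cry1 kept its call.

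In the growth hormone and IGF axis, 1 of 15 genes was higher (Igfbp1) and 1 lower: Igfals, the subunit that holds IGF in its long-lived blood complex, had 7.31, 6.62 and 9.13 CPM in CONS against 16.4, 18.1 and 24.1 CPM in PULS (log2 fold change -1.34, SE 0.20, adjusted p = 0.004). Cytokine signalling held 3 lower genes, the adhesion molecule Icam1 (-0.91, adjusted p = 0.035), Tnfaip2, a gene induced by tumour necrosis factor (-0.89, adjusted p = 0.0339), and Zfp36l1, which promotes mRNA decay (-0.69, adjusted p = 0.0366). Rcan1, an inhibitor of calcineurin (-1.15, adjusted p = 0.0101), and Gbe1, the glycogen branching enzyme and the only one of 12 glycogen genes called (-0.80, adjusted p = 0.0146), were also lower. Each of these 5 lost its call when single libraries were left out, with adjusted p up to 0.196, 0.185, 0.196, 0.0707 and 0.103 in that order; PULS CORT replicates 2 and 3 were among those libraries for all 5. No gene was called among 23 of glycolysis, 19 acute phase proteins, 15 apolipoproteins or 24 ribosomal proteins, whose medians were -0.27, -0.16, -0.02 and -0.05.

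Markers of other cell types of liver were summed per library as a check on tissue composition. The sums overlapped between CONS CORT and PULS CORT for lymphocytes (18 to 25 against 14.9 to 26.9 CPM), Kupffer cells (423 to 483 against 403 to 622 CPM), endothelial cells (406 to 495 against 387 to 502 CPM), stellate cells (497 to 548 against 528 to 730 CPM), cholangiocytes (12 to 14.2 against 13.9 to 16.6 CPM) and erythroid cells (146 to 296 against 211 to 265 CPM). The sums did not overlap for the 3 neutrophil markers tested, at 0.282 to 1.22 CPM against 1.48 to 2.74 CPM, with Mpo, Elane, Camp and Cxcr2 at or below 10 reads over the 12 libraries. These sums rest on few reads, and none of the 3 genes was called. S100a9 fell most (-1.99) and S100a8 went the other way (0.16). Among single genes tested, 17.1% did not overlap. Of the marker genes, Rgs5, a regulator of G proteins known from pericytes, was the only one called (log2 fold change 1.43, SE 0.23, adjusted p = 0.00545), in the direction opposite to the summed stellate list. In whole tissue, fewer cells of a type and less RNA per cell cannot be told apart, and the part of cell mixture in the results was not tested.

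With vehicle the infusion pattern gave no call: 0 of the 14092 genes (0%) were called between CONS VEH and PULS VEH by edgeR, 1286 (9.13%) had an unadjusted p below 0.05, and DESeq2 called 22. The CONS VEH libraries differed most among themselves. Their chi-square per degree of freedom between pairs was 15.6 to 29.3, against 5.48 to 10.6 within the other groups. Their summed hepatocyte markers ran from 109100 to 151000 CPM with a median of 109900, against 141400 to 159700 CPM in the other groups. The part of this in the VEH contrast and in the interaction below was not tested. Without CONS VEH replicate 1 edgeR called 23 genes, so the count of 0 does not show that the pattern had no effect with vehicle. The 87 genes higher in CONS CORT had a median log2 fold change of 0.03 in VEH, where 51 were positive, and the 38 lower genes a median of 0.11, where 12 were negative. Of all genes tested, 48.4% were positive in VEH. In 67 of the 87 both VEH means were below both CORT means, and for 28 the PULS CORT mean lay within the range of the 6 VEH libraries. For 19 of the 38 both VEH means were above both CORT means, and for 24 the PULS CORT mean lay within the VEH range, as the CONS CORT mean did for 4. How many of all genes tested had these positions was not counted, so the numbers describe the called genes only. Lpin1 was one of the 67, with VEH means of 86.5 ± 14.7 CPM (CONS, SD, n = 3) and 92.2 ± 18 CPM (PULS, SD, n = 3) against 765 ± 109.8 CPM in PULS CORT.

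Whether the difference between patterns itself differed between CORT and VEH was tested as an interaction. It was called in 4 genes (0.0284%), Ppargc1a, Psmb8, Cyp2c22 and Csrp1, all among the 125; Csrp1 was named after its value was seen. Psmb8, a subunit of the immunoproteasome, had 8.73, 8.16 and 8.42 CPM in CONS CORT and 20.2, 22.5 and 17.4 CPM in PULS CORT, but 19.2, 25.3 and 25.2 CPM in CONS VEH and 11.6, 16 and 15.1 CPM in PULS VEH. Each CONS library was below each PULS library with hormone and above it with vehicle (interaction -1.94, SE 0.24, adjusted p = 0.00568). The vehicle difference was not particular to Psmb8. The 34 interferon signalling genes tested, Psmb8 among them, had a median log2 fold change of 0.40 between CONS VEH and PULS VEH, against -0.01 for all genes. Without CONS VEH replicate 1 289 genes were called in this test, and with each other library left out 1 to 26; DESeq2 called 215, of which 61 were among the 125.

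**Figure D4:**
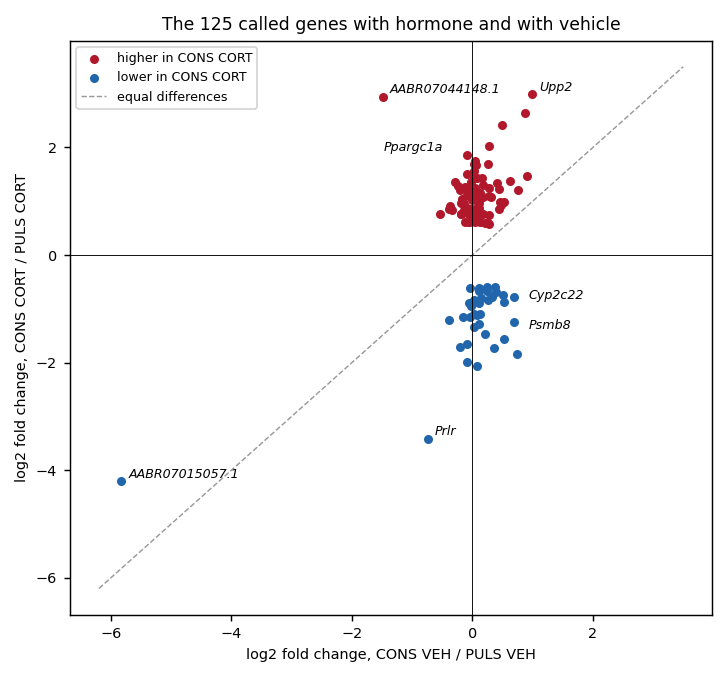
Log2 fold change of CONS over PULS with CORT (vertical axis) and with VEH (horizontal axis) for the 125 called genes, red where higher and blue where lower in CONS CORT, with a dashed line where the differences would be equal. Most points lie close to 0 on the VEH axis (medians 0.03 and 0.11), AABR07015057.1 lies near the dashed line at -5.83 and -4.21, and Psmb8 is positive with VEH and negative with CORT.

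Elongating polymerase was measured in the same study by ChIP-Seq of RNA polymerase II phosphorylated at serine 2 (pSer2 Pol2), in 2 libraries of 6 pooled rats per group, and gave a readout of the same contrast at 180 min that the mRNA counts did not use. Of the 11543 tested genes with a measured region, 27 (0.234%) were higher and 1 (0.00866%) was lower in CONS at 180 min than at the pulse nadir, by limma on the deposited log2 values. Many differences lay close to 0, where a sign is no measurement, so only differences over 1.5-fold were counted. Among the 83 higher mRNAs with a region, Pol2 was higher by more than 1.5-fold in 34 (41%) and lower in 1, against 2.89% and 4.91% of all genes with a region, and the median difference was 0.20 against -0.04. Among the 36 lower mRNAs, Pol2 was lower by more than 1.5-fold in 7 (19.4%) and higher in 2, and the median was -0.24. The other 48 and 27 lay within 1.5-fold. These shares are given as a description, since genes are not independent of each other, and the 1.5-fold limit was set on them after the values were seen.

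Pol2 was called in 6 of the 83 and in none of the 36. Got1 had log2 Pol2 values of 10.71 and 10.47 in the CONS libraries and 7.92 and 7.27 at the nadir (difference 3.00, SE 0.31, adjusted p = 0.00343). Lpin1 had 11.32 and 10.93 against 6.57 and 6.22 (difference 4.73, SE 0.47, adjusted p = 0.00328), and Por 8.56 and 8.48 against 6.33 and 5.65 (difference 2.53, SE 0.37, adjusted p = 0.0202). The remaining 3 were Edem1, which acts in the disposal of misfolded glycoproteins (2.48, SE 0.28, adjusted p = 0.0043), Tp53inp1, a stress gene regulated by p53 (1.98, SE 0.32, adjusted p = 0.0442), and the unnamed locus AABR07044148.1 (4.35, SE 0.59, adjusted p = 0.014), of which Edem1, Tp53inp1 and AABR07044148.1 were named after their values were seen. The difference of Lpin1 was 4.73 in Pol2 and 1.11 in mRNA.

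For other genes the Pol2 values gave no such difference or could not be read. Ppargc1a, with the smallest adjusted p in mRNA, had log2 Pol2 values of 3.27 and 3.10 in CONS and 3.10 and 3.10 at the nadir and 3.10 in VEH by group mean. These values were low and nearly equal, and at low tags the deposited values are drawn to the mean. Neither a difference nor its absence can be read from them. Upp2 had 6.71 and 6.84 against 6.08 and 5.46 (difference 1.00, SE 0.37, adjusted p = 1). Nr1d1 was higher in mRNA and had a Pol2 difference of -1.5, and Cyp2c22, a cytochrome P450 of a family whose members share sequence, was lower in mRNA with a Pol2 difference of 1.5; neither was called in Pol2. The number of Pol2 calls over all genes, 29, fell to 0 without either CONS 180 min library and was 6 without the first nadir library. Without the second it was 82, of which 19 were higher and 63 lower, where 28 of the 29 had been higher.

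**Figure D5:**
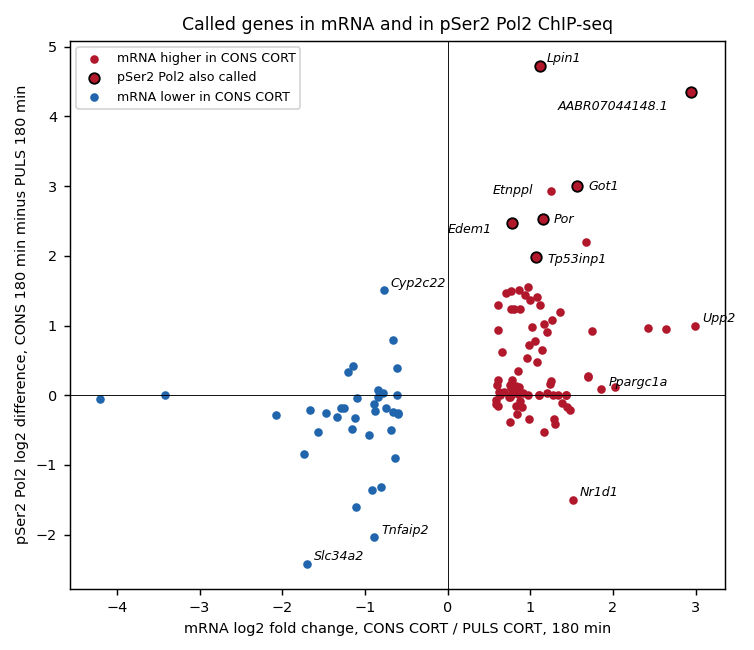
Log2 difference in pSer2 Pol2 between CONS and PULS at 180 min (vertical axis) against the mRNA log2 fold change of CONS CORT over PULS CORT (horizontal axis) for the called genes with a Pol2 region, with the 6 also called in Pol2 ringed. Of the 83 red points 34 lie more than 1.5-fold above 0 and of the 36 blue points 7 lie more than 1.5-fold below it, many others lie at or near 0, and Lpin1 and AABR07044148.1 are highest.

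GR ChIP-Seq of the same study listed 3981 regions, in 2 libraries per group. A GR region lay within 50 kb of the start of 66 of the 87 higher genes (75.9%) and of 17 of the 37 lower genes with a known start (45.9%), against 23.5% of all genes tested and 27.1% of those with at least 5 CPM. The median distance to the nearest region was 10.4 kb for higher, 63.5 kb for lower and 179 kb for all genes. Within 10 kb the shares were 49.4%, 27% and 8.54%, and within 100 kb 89.7%, 59.5% and 36.1%, so the order was kept at each distance.

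At Upp2 the nearest GR region (chr3:44805713-44806338, rn6) was centred at -80 bases from the start (negative, upstream), and GR there was higher in CONS at 180 min than at the nadir by 4.28 on the log2 scale. At Got1 the region (chr1:263269863-263270488, rn6) lay at -414 bases, with a difference of 3.02. At Por and Lpin1 the regions lay at 5842 and -10648 bases, with differences of 4.54 and 3.29, and at Ppargc1a the nearest listed region was 261706 bases away. These GR values are scaled to total tags according to the table's header, while the study's methods describe scaling to the tags in bound regions. Near the called genes the median GR difference was 2.65, but it was 2.49 over all 3981 regions, of which 93.6% were positive. Relative to each library's own median the median near the called genes was -0.23 and that over all regions -0.39.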

How the data were processed

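RNA-Seq of total RNA from liver (12 libraries, stranded kit) was aligned by the authors with STAR to rn6 and counted over exons with featureCounts 1.6.2, per the labels and the study's methods, and the deposited values are raw read counts per gene. The deposited GR and pSer2 Pol2 ChIP-Seq tables hold log2 values that the authors made per region and per library (bowtie2 to rn6, HOMER), with input subtracted, in 10 libraries each. The GR table's header gives scaling to total tags, as the methods state for Pol2, whereas the methods give scaling to tags within bound regions for GR, a choice that shifts the values of a whole library; their fold change and p-value columns, and the authors' own RNA comparison tables, were not used. RNA alignment settings, strand mode and multi-mapping were not given in the sources used here.

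The genes that passed the filter (over 10 reads in all) were fitted in edgeR 4.0.16 (TMM, quasi-likelihood, 4 group means) under R 4.3.3; the SE is the log2 fold change divided by the root of the F statistic. A call needed an adjusted p below 0.05 (Benjamini-Hochberg over all genes tested) and more than 1.5-fold. DESeq2 1.42.0 was an alternative, and limma 3.58.1 with a trend was used for Pol2, where values are drawn to the mean at low tags. Plots used Python 3.11.15 and matplotlib 3.10.9. The fit was tested on simulated counts with known changes. Symbols came from the Pol2 table's pairing of identifiers and names (14074 of the tested genes).

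Pairing was checked on 8931 genes of at least 5 CPM. Deviations from the group mean correlated at 0.194, 0.103 and 0.168 between same-numbered CONS CORT and PULS CORT libraries and at -0.16 to -0.00871 between others. Deviations sum to 0 within a group, so the negative values are no separate evidence of pairing. Over all genes tested the first 3 were 0.081, 0.0391 and 0.0727. Between VEH libraries same-numbered pairs gave -0.0194, -0.0635 and -0.145 and the others -0.0184 to 0.0962. The pairing of CORT libraries comes from the correlation of same-numbered CORT libraries alone, and results are given with and without it.

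Named genes were the 15 largest calls per direction with at least 5 CPM and a symbol, called members of the lists, at most 6 a list, and all GR targets; some genes that the rule names are not reported here. The comparison, its genes and the lists were chosen with earlier results of these data known.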

Additional observations from a re-analysis of the deposited data

Results flagged for a closer look

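The difference between CONS and PULS differed between CORT and VEH in 4 genes by a test of the difference itself (the interaction in edgeR's quasi-likelihood test). For Psmb8 the interaction was -1.943 on the log2 scale (SE 0.24, adjusted p = 0.00568), with -1.25 under CORT and 0.69 under VEH. For Ppargc1a it was 1.949 (SE 0.29, adjusted p = 0.0323), with 1.86 under CORT and -0.09 under VEH, where the libraries lay at 23.9, 17.4 and 21.9 CPM (CONS) and 17.8, 20.6 and 29.9 CPM (PULS).

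For Cyp2c22 the interaction was -1.472 (SE 0.24, adjusted p = 0.0416), with CORT libraries at 1008, 1200 and 1141 CPM (CONS) against 2310, 1840 and 1578 CPM (PULS) and VEH libraries at 1305, 1315 and 1441 CPM (CONS) against 844, 639.9 and 1020 CPM (PULS). Each CONS library was below each PULS library with hormone and above it with vehicle. The 26 genes tested on the cytochrome P450 list, Cyp2c22 among them, had a median log2 fold change of 0.37 between the VEH groups. The call of Cyp2c22 between the CORT groups (-0.77, adjusted p = 0.0366) ended with each CORT library left out in turn (adjusted p up to 0.196). It also ended without CONS VEH replicate 3 (0.0507). For Csrp1, a LIM domain protein, the interaction was -1.256 (SE 0.20, adjusted p = 0.0416), from -0.75 under CORT and 0.51 under VEH. With same-numbered libraries paired the adjusted p of Cyp2c22, Csrp1, Ppargc1a and Psmb8 were 0.0354, 0.0351, 0.012 and 0.00604. With DESeq2 those of Cyp2c22, Csrp1 and Ppargc1a were 2.07e-06, 7.32e-05 and 1.9e-06, while DESeq2 gave no adjusted p for Psmb8.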

How the results depend on the processing

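Between CONS CORT and PULS CORT, DESeq2 called 138 genes higher and 71 lower, the test without a read filter 177 and 96, the 6 CORT libraries alone 137 and 71, and those 6 with the replicate block 243 and 155, against 87 and 38. RLE size factors, a filter at 1 CPM, no fold threshold and the block over 12 libraries stayed within 1.5 times of both counts; of the 53 named genes that block ended the calls of Slc38a4, AABR07068203.1 and AABR07015057.1 and no other, and the 1 CPM filter those of Cpt1a, Fasn and Ppara as well. Over the leave-one-out fits 17 to 113 genes were higher and 5 to 51 lower; those that left out a vehicle library were added after the data were seen. Between CONS VEH and PULS VEH the count of 0 became 22 with DESeq2, 30 without a filter and 0 to 23 with a library left out (23 without CONS VEH replicate 1). The 4 interactions became 215 with DESeq2, 204 without a filter, 9 with the block and 1 to 289 with a library left out (289 without CONS VEH replicate 1). The 29 Pol2 genes became 0 with only the 4 libraries compared (1506 regions at an unadjusted p below 0.05), 72 with each library centred on its median, 47 with the block and 0 to 82 with a library left out (82, 19 higher and 63 lower, without the second nadir library). GR regions lay within 10 kb of 42.7% and within 100 kb of 80.6% of called genes, against 66.9% within 50 kb (83 of 124). The median GR difference near called genes went from 2.65 to -0.228 once libraries were centred on their median. Over all regions it went from 2.49 to -0.39, as centring removes the difference that the regions share, so the change of sign is not particular to the called genes. Dusp1, not called, ran from -0.2594 (without CONS CORT replicate 2) to 0.3406. The causes were not tested. With 3 libraries a group of 3956379 to 7777219 reads, genes of a few CPM rest on few reads, and their differences are the least precise.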

Other observations

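Among the called genes outside the lists, chosen here after their values were seen, the following stood far above vehicle. AABR07015559.1 had means of 31.1 CPM in CONS CORT and 15.9 CPM in PULS CORT against 0.134 and 0.13 CPM in the VEH groups. AABR07027072.1 had 23.9 and 9.37 CPM against 0.833 and 0.839 CPM. Edem1 had 1574 and 915 CPM with CORT against 162 and 169 CPM with VEH, in CONS and PULS respectively.

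Bcl2l11, which promotes apoptosis, rose by a log2 fold change of 1.30 (adjusted p = 0.00951), from 12.9 CPM in PULS to 32.4 CPM in CONS by group mean, with VEH means of 12.4 and 11.2 CPM. Bnip3l, which acts in the removal of mitochondria, was at 0.76 (adjusted p = 0.0105). Sdc4, a cell surface proteoglycan, had means of 417 and 230 CPM with CORT against 98.8 and 96.3 CPM with VEH.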
